A study of Arabidopsis thaliana with 6 samples.

Results

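The reads past the 3' ends of genes were compared between nerd-1 and wild-type (WT) seedlings of Arabidopsis thaliana. The comparison rests on the 4 libraries labelled nerd-1 or WT, with replicates 1 and 2 of each, out of 6 libraries in the series. The nerd-1 plants carry a mutant allele of NERD, for which the labels give the allele name alone, and the WT plants carry no named allele. Both are of the Col-0 ecotype and were collected as whole seedlings at 9 days. The other 2 libraries come from cpsf30-1 seedlings of the same ecotype and age, mutant in a subunit of the polyadenylation complex. They entered the model that estimates the spread between replicates. Reads were counted in the 500 bases past the annotated end of each transcript, and 1 transcript was kept for each of 31109 genes. Of these windows, 14151 held enough reads to be tested in nerd-1 against WT.

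NERD, short for Needed for RDR2-independent DNA methylation, is a plant protein with a PHD finger and GW repeats. It is known to interact with AGO2 and with histone H3, and to be needed for small-RNA-guided DNA methylation and silencing at a subset of non-conserved loci. At the end of a typical plant gene the transcript is cleaved and given a poly(A) tail, and the polymerase runs on for some distance before it stops. Poly(A)-selected reads past the annotated end can come from a later cleavage site, from readthrough, or from a neighbouring gene. A window is named here for the gene that it follows, and its reads are in general not a measure of that gene's expression. Some windows overlap a longer form of their own gene in the TAIR10.1 annotation, where they can hold that gene's reads. The larger of these overlaps are pointed out where named, and some smaller ones are not. The counting's strand setting is not given in the sources used here, so reads of both strands of a window cannot be told apart.

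The 6 windows with a call all overlap another annotated gene. They are shown by the 30 bases around the annotated end of the transcript, since that is where each window starts. Lower-case letters are the last 15 bases of the transcript, and capitals are the first 15 bases of the window, 5' to 3' on the strand of the gene. Sequences and positions were read from the TAIR10.1 reference.
PBA1, chr4:15191203-15191232, plus strand: acatcgttcaaaataGTAATCACAACCTTT
CLC-B, chr3:10027184-10027213, plus strand: agcacgcactttcttAATTCCCACTTTTTT
KCS15, chr3:19344957-19344986, minus strand: tgattgcatttgaacATATCCCTGATGCTA
AT1G55680, chr1:20804577-20804606, minus strand: atatcatgatgtttcATAATATTTCTGTTT
AT1G73460, chr1:27625126-27625155, plus strand: aattcaggattagttATGCAATCAAATTAA
AT2G11890, chr2:4804361-4804390, plus strand: ccaaaaaattacatcCATCTGACTACAAAC

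Of the window past NERD itself (AT2G16485), 99 of 500 bases lie within NERD. The window held 0 counts in nerd-1 replicates 1 and 2 and 0 counts in WT replicates 1 and 2. With no reads there in WT, this window cannot check the lesion. On one side of it, the window past AT2G16460 held 2 and 0 counts in nerd-1, 0 and 0 in WT and 15 and 0 in cpsf30-1. It was not tested, and its cpsf30-1 replicates differ widely. On the other side, the window past the neighbouring gene AT2G16490 held 12 and 6 counts in nerd-1, against 0 and 0 in WT and 0 and 0 in cpsf30-1. That is at least 3.18-fold higher than WT with 3 counts per WT library as the floor, but the window had too few counts to be tested. The window past the CPSF30 transcript AT1G30460.2, of which 373 of 500 bases lie within CPSF30 itself, held 66 and 58 counts in nerd-1 and 43 and 49 in WT. It held 1 and 0 in cpsf30-1, below the other 4 libraries.

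Total counts with 1 transcript per gene were 9774817 and 9764394 in nerd-1 replicates 1 and 2, against 8703050 and 13740648 in WT replicates 1 and 2. A count of 0 allows up to 0.307 CPM (counts scaled to a common library size of 1e6) in either nerd-1 library, and up to 0.345 and 0.218 CPM in WT replicates 1 and 2. The floors use totals before TMM scaling. The floors and the intervals below cover counting error only. The nerd-1 libraries resembled each other more than the WT libraries did, and the log2 difference between replicates had an SD of 0.57 in nerd-1 and 0.856 in WT. The labels do not state whether the 2 replicates of a genotype are separate pools of plants. The p-values therefore reflect only how these libraries vary, which may be technical. In each library some runs of neighbouring windows shared 1 minimum count. Runs of nerd-1 or WT libraries covered 979 of the 14151 tested windows. A run in WT replicate 1 with a minimum of 1475 counts spans 116 windows on chromosome 1, of which 80 were tested. A shorter run of 20 windows within it has the highest minimum, of 1476 counts.

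Few windows were called between nerd-1 and WT. With edgeR's quasi-likelihood test, 1 window rose and 5 fell in nerd-1 at an adjusted p under 0.05, which is 0.0424% of those tested (0.00707% higher and 0.0353% lower). An unadjusted p under 0.05 was reached by 1390 windows (9.82%), of which 668 were higher in nerd-1 (4.72%) and 722 lower (5.1%). The log2 fold change was above 0 in 6883 windows (48.6%), and its median was -0.01. None of the 6 called windows lay in a run. The number of calls rests on few libraries: 0 windows were called without nerd-1 replicate 1, nerd-1 replicate 2, cpsf30-1 replicate 1 or cpsf30-1 replicate 2 (589 to 1502 at an unadjusted p under 0.05), and 0 with only the nerd-1 and WT libraries in the fit (1362 at an unadjusted p under 0.05). Without WT replicate 2 there were 125 called genes, 71 of them in runs, and DESeq2 called 150 windows, among which were all 6. Of the 14151 windows tested here, DESeq2 called 135 (0.954%), 72 higher (0.509%) and 63 lower (0.445%).

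The smallest p belonged to the window past PBA1 (AT4G31300), which encodes a beta subunit of the 20S proteasome. Its window, at 15191218 to 15191717 on chromosome 4, held 191 and 186 counts in nerd-1, against 714 and 1263 in WT. In CPM that was 19 ± 0.497 in nerd-1 and 87.9 ± 10.1 in WT (SD, n = 2 each). Both nerd-1 libraries were far below both WT libraries. The window fell 4.63-fold (log2 fold change -2.21, SE 0.161, edgeR adjusted p = 0.0256). It overlaps AT4G31310, an AIG2-like gene on the same strand, by 498 bases, 297 of them exonic. The window past the upstream neighbour AT4G31290 held 1517 and 1662 counts in nerd-1 and 1271 and 1778 in WT. Scaled for depth this was 148 and 173 CPM in nerd-1 against 144 and 134 CPM in WT, so both nerd-1 libraries lay above both WT libraries (log2 fold change 0.21, adjusted p = 0.657). The window past AT4G31310 on the far side held 0 to 2 counts in the nerd-1 and WT libraries, too few to be tested.

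CLC-B (AT3G27170) encodes a member of the CLC family of anion channels and transporters, which move chloride and nitrate across endomembranes. Its window, at 10027199 to 10027698 on chromosome 3, held 39 and 41 counts in nerd-1, against 285 and 397 in WT. It fell 7.68-fold (4.04 ± 0.324 CPM in nerd-1 and 31.1 ± 1.68 in WT, SD, n = 2 each, log2 fold change -2.94, SE 0.246, edgeR adjusted p = 0.0339). All 500 bases lie within AT3G27180, a methyltransferase-like gene on the other strand, 313 of them exonic. The window past AT3G27180 points the other way and overlaps CLC-B. It held 837 and 913 counts in nerd-1 and 666 and 931 in WT (log2 fold change 0.28, SE 0.152, edgeR adjusted p = 0.584). The window lying on AT3G27180 thus fell and the one lying on CLC-B did not pass the test, and the difference between the pair was not tested.

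A pair of neighbouring windows on chromosome 3 was low in nerd-1. KCS15 (AT3G52160) encodes a 3-ketoacyl-CoA synthase, the family that elongates very-long-chain fatty acids. Its window, at 19344472 to 19344971, held 49 and 45 counts in nerd-1, against 267 and 504 in WT. It fell 7.19-fold (4.73 ± 0.0724 CPM in nerd-1 and 34.1 ± 5.45 in WT, SD, n = 2 each, log2 fold change -2.85, SE 0.283, edgeR adjusted p = 0.0375). All of it is exonic sequence of AT3G52155, a phosphoglycerate mutase family gene on the other strand. The window past PSRP2 (AT3G52150, a plastid ribosome-associated RNA-binding protein) reaches the same AT3G52155 from its other end, overlapping it by 430 bases on the same strand. It held 81 and 83 counts in nerd-1, against 576 and 640 in WT, with a log2 fold change of -2.77 (SE 0.303) and an edgeR adjusted p of 0.06. The window past AT3G52155 itself, which lies within AT3G52155 over 496 of its 500 bases, held 20 and 29 counts in nerd-1, against 46 and 68 in WT (log2 fold change -1.05, adjusted p = 0.383). All 3 windows were below WT in both nerd-1 libraries, with 1 past the threshold.

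AT1G55680 encodes a WD40 repeat protein. Its window, at 20804092 to 20804591 on chromosome 1, held 78 and 50 counts in nerd-1, against 344 and 620 in WT. It fell 6.66-fold (6.41 ± 1.71 CPM in nerd-1 and 42.8 ± 5.46 in WT, SD, n = 2 each, log2 fold change -2.74, SE 0.273, edgeR adjusted p = 0.0375). The window overlaps AT1G55675 on the same strand by 483 bases, all of them exonic. The window past AT1G55675, which follows in the direction of transcription, held 94416 and 85177 counts in nerd-1 and 86707 and 73155 in WT. That window also overlaps AT1G55670 and AT1G55673, and its log2 fold change was 0.24 (SE 0.425).

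AT1G73460 encodes a protein of the protein kinase superfamily. Its window, at 27625141 to 27625640 on chromosome 1, held 56 and 56 counts in nerd-1, against 213 and 371 in WT. It fell 4.6-fold (5.65 ± 0.253 CPM in nerd-1 and 26 ± 2.69 in WT, SD, n = 2 each, log2 fold change -2.20, SE 0.216, edgeR adjusted p = 0.0375). All 500 bases lie within AT1G73470 on the same strand, 404 of them exonic. The window past AT1G73470 held 8 and 8 counts in nerd-1, against 14 and 26 in WT (log2 fold change -1.13, adjusted p = 0.446). The window past AT1G73450, upstream of AT1G73460, held 90 and 53 counts in nerd-1 and 80 and 129 in WT. Scaled for depth this was 8.78 and 5.51 CPM in nerd-1 against 9.05 and 9.7 CPM in WT, so both nerd-1 libraries lay below both WT libraries here too (log2 fold change -0.39, adjusted p = 0.699).

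The only call in the other direction lay near the centromere of chromosome 2. AT2G11890, also named TTM3, encodes a triphosphate tunnel metalloenzyme, a family that acts on tripolyphosphate. Its window, at 4804376 to 4804875, held 164 and 145 counts in nerd-1, against 23 and 29 in WT. It rose 6.52-fold (15.5 ± 0.655 CPM in nerd-1 and 2.39 ± 0.298 in WT, SD, n = 2 each, log2 fold change 2.70, SE 0.248, edgeR adjusted p = 0.0375). It overlaps the whole 168 bases of AT2G11891, a small gene with no described function on the same strand. The window past AT2G11891 overlaps the same region and no further gene. It held 78 and 98 counts in nerd-1, against 9 and 25 in WT (log2 fold change 2.57, SE 0.378, adjusted p = 0.116). The window past AT2G11880 on the upstream side held 124 and 145 counts in nerd-1 and 112 and 158 in WT, so its groups overlap.

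**Figure D1:**
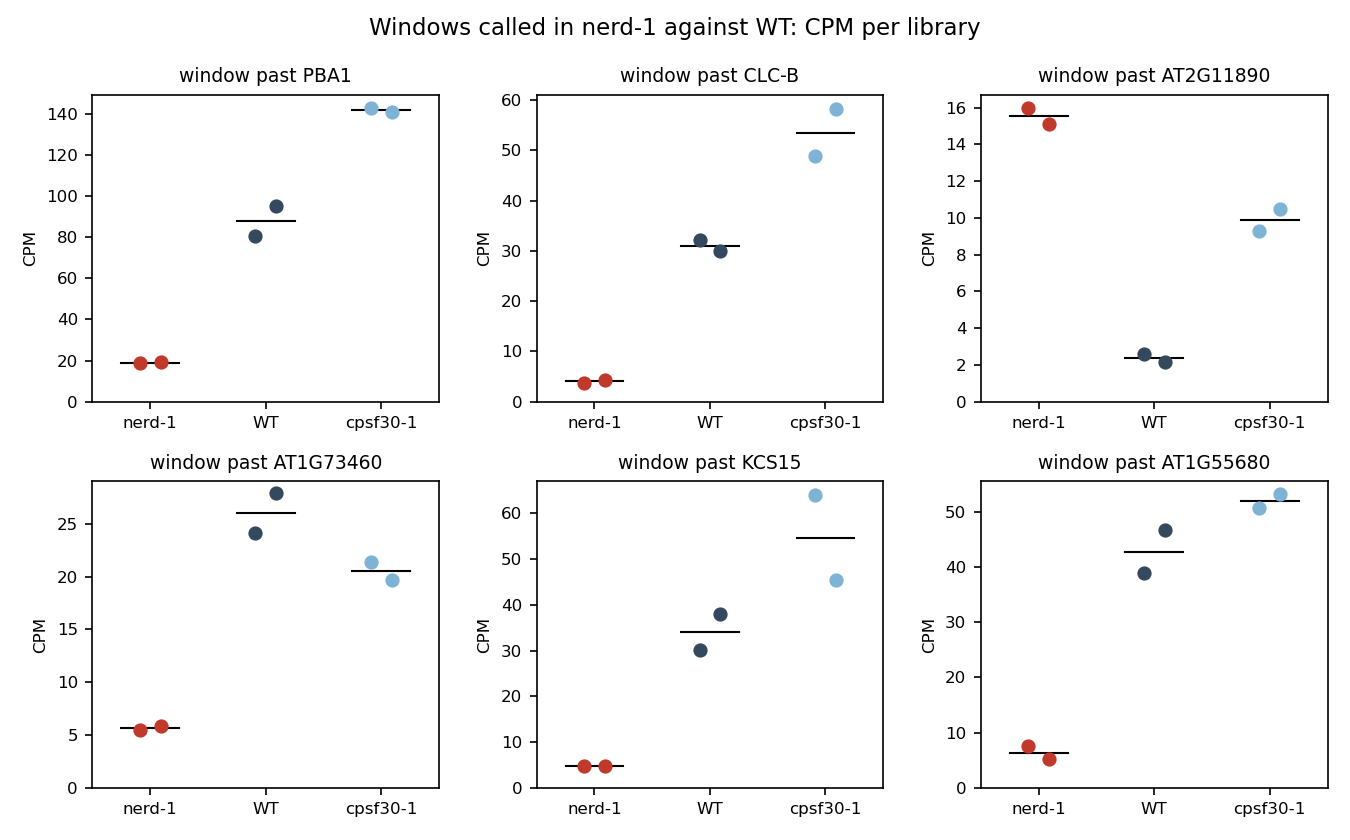
CPM (vertical axis, from 0) in the 6 windows called in nerd-1 against WT, with nerd-1, WT and cpsf30-1 from left to right. Points are libraries and bars are means of 2. In 5 windows both nerd-1 libraries lie below both WT libraries, and in the window past AT2G11890 both lie above.

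The windows of the other deposited transcripts of these genes gave almost the same counts, since they overlap the windows above. Past PBA1, transcripts AT4G31300.1 and AT4G31300.2 each held 191 and 186 counts in nerd-1, against 715 and 1264 in WT. Past AT2G11890.1 there were 170 and 153 counts in nerd-1, against 25 and 30 in WT. Across 23 alternative analyses each of the 6 windows kept its direction. Their adjusted p ranged up to 0.583 or 0.592, and each lost its call in 10 to 12 of the 23.

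The 6 windows were also set against the cpsf30-1 libraries. That comparison uses the same nerd-1 libraries in which 5 of the windows were found low, so it is no independent support. Against cpsf30-1, the windows past PBA1, CLC-B, KCS15, AT1G55680 and AT1G73460 also fell in nerd-1. The window past PBA1 held 191 and 186 counts in nerd-1, against 1475 and 1524 in cpsf30-1 (log2 fold change -2.90, SE 0.165, edgeR adjusted p = 0.00087). The window past CLC-B held 39 and 41 counts in nerd-1, against 504 and 628 in cpsf30-1 (log2 fold change -3.73, edgeR adjusted p = 0.00138). The remaining 3 had log2 fold changes of -3.53 past KCS15, -3.01 past AT1G55680 and -1.86 past AT1G73460, with edgeR adjusted p of 0.00217, 0.00274 and 0.00483. The window past AT2G11890 held 164 and 145 counts in nerd-1 against 96 and 113 in the cpsf30-1 libraries, a difference that did not pass the test (log2 fold change 0.65, SE 0.222, edgeR adjusted p = 0.104). Set against WT, this window rose in cpsf30-1 too (log2 fold change 2.05, edgeR adjusted p = 0.00556). That rise is measured from the same WT libraries in which the window was found low, so it is no independent support either. Over all windows, 459 rose (3.24%) and 1044 fell (7.38%) in nerd-1 against cpsf30-1, which is 10.6% of those tested. In cpsf30-1 against WT 10.3% were called, 7.41% higher and 2.85% lower.

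The plot of fold change against level shows the 6 called windows at mid levels. Of the windows with an unadjusted p under 0.05, the 668 higher in nerd-1 had a median fold of 2.31, with 404 at 2-fold or more and 170 at 4-fold or more. The 722 lower in nerd-1 had a median fold of 1.98, with 353 at 2-fold or more and 137 at 4-fold or more. Runs of any library held 81 of the higher and 138 of the lower windows. Both nerd-1 libraries lay above both WT libraries in 3111 windows (22%) and below both in 3032 (21.4%).

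**Figure D2:**
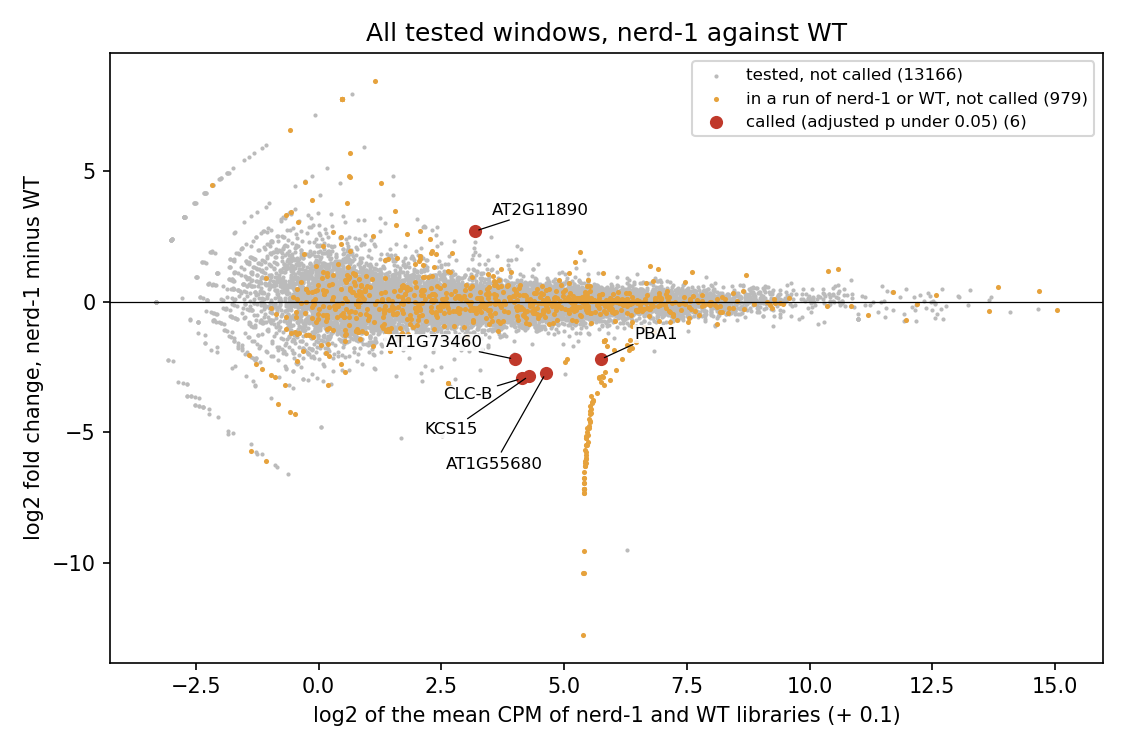
Log2 fold change of nerd-1 against WT (vertical axis) against the log2 of the mean CPM of the nerd-1 and WT libraries plus 0.1 (horizontal axis) for 14151 tested windows. Red points are the 6 called windows, and orange points are the 979 windows in runs of nerd-1 or WT libraries, among which those of WT replicate 1 on chromosome 1 form the column of low values.

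The 12 windows that follow in order of p did not pass the threshold, with edgeR adjusted p from 0.06 to 0.115. Of these, 6 were lower and 6 higher in nerd-1, and in all 12 the libraries of the 2 genotypes did not overlap. The choice by p favours this, so it is no result about the 12. Of all tested windows, 22% had both nerd-1 libraries above both WT libraries and 21.4% had both below. Among the lower ones, the window past G6PD3, a plastid glucose-6-phosphate dehydrogenase gene of the oxidative pentose phosphate pathway, held 16 and 11 counts in nerd-1, against 68 and 96 in WT (log2 fold change -2.45, SE 0.28, adjusted p = 0.0723). All of it is exonic sequence of AT1G24290 on the other strand. The window past AT5G25560, a zinc finger protein gene, held 1 and 2 counts in nerd-1, against 39 and 101 in WT. The ratio of WT to nerd-1 was 41.9 with a 95% exact counting interval of 14 to 205. It overlaps AT5G25570 on the same strand, and its adjusted p was 0.102.

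ATNTH1 encodes a DNA glycosylase of base excision repair. Its window held 61 and 62 counts in nerd-1, against 174 and 402 in WT (log2 fold change -2.01, SE 0.267, adjusted p = 0.115). The window past AT3G51010, which the reference calls a protein translocase subunit gene, held 148 and 189 counts in nerd-1, against 534 and 677 in WT (log2 fold change -1.71, SE 0.235, adjusted p = 0.115). The window past AT2G14110, a gene of the HAD hydrolase superfamily, held 18 and 15 counts in nerd-1, against 75 and 135 in WT (log2 fold change -2.48, SE 0.344, adjusted p = 0.115). That window and the window past DRP3B, a dynamin-related gene of mitochondrial and peroxisomal division, both overlap the noncoding gene AT2G14115. The window past DRP3B, named after its values were seen, held 15 and 12 counts in nerd-1, against 69 and 117 in WT (log2 fold change -2.60, SE 0.372, adjusted p = 0.115). Since the pair of windows overlaps, the 2 sets of counts may share reads.

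Among the higher ones, the window past GDPD4, a glycerophosphodiester phosphodiesterase gene, held 269 and 259 counts in nerd-1, against 65 and 64 in WT (log2 fold change 2.14, SE 0.262, adjusted p = 0.102). It lies within NAP5, a gene of the ABC protein family, on the same strand. The same window held 276 and 295 counts in cpsf30-1. The window past AT5G07650, a formin gene, has 175 of its bases within AT5G07650 itself. It held 95 and 86 counts in nerd-1, against 16 and 26 in WT (log2 fold change 2.26, SE 0.291, adjusted p = 0.113), and 101 and 84 in cpsf30-1. In both windows the mutants held similar counts, and their difference was -0.02 past GDPD4 and 0.05 past AT5G07650 on the log2 scale, nerd-1 minus cpsf30-1.

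The window past ARI5, a gene of the ARIADNE family of RING-type ubiquitin ligases, held 80 and 75 counts in nerd-1, against 6 and 18 in WT (log2 fold change 2.88, SE 0.402, adjusted p = 0.115). The window past AT4G29590, a methyltransferase-like gene, held 130 and 130 counts in nerd-1, against 36 and 58 in WT (log2 fold change 1.63, SE 0.223, adjusted p = 0.115). In cpsf30-1 it held 234 and 309 counts, more than in nerd-1 (log2 fold change -0.97, nerd-1 minus cpsf30-1, edgeR adjusted p = 0.0307). The pseudogene AT4G04635 was the only isolated window of the 12, with no other annotated gene in its 500 bases. It held 27 and 32 counts in nerd-1, against 0 and 0 in WT and 99 and 61 in cpsf30-1, and was at least 10.6-fold higher in nerd-1 than in WT with 3 counts per WT library as the floor (adjusted p = 0.115). A further isolated window, past the thylakoid protease gene DEG1, was named after its values were seen. It held 22 and 26 counts in nerd-1, against 1 and 1 in WT, a ratio of 26.7 with a 95% exact counting interval of 7.01 to 227 (adjusted p = 0.115). It lies within a longer transcript of DEG1 itself.

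**Figure D3:**
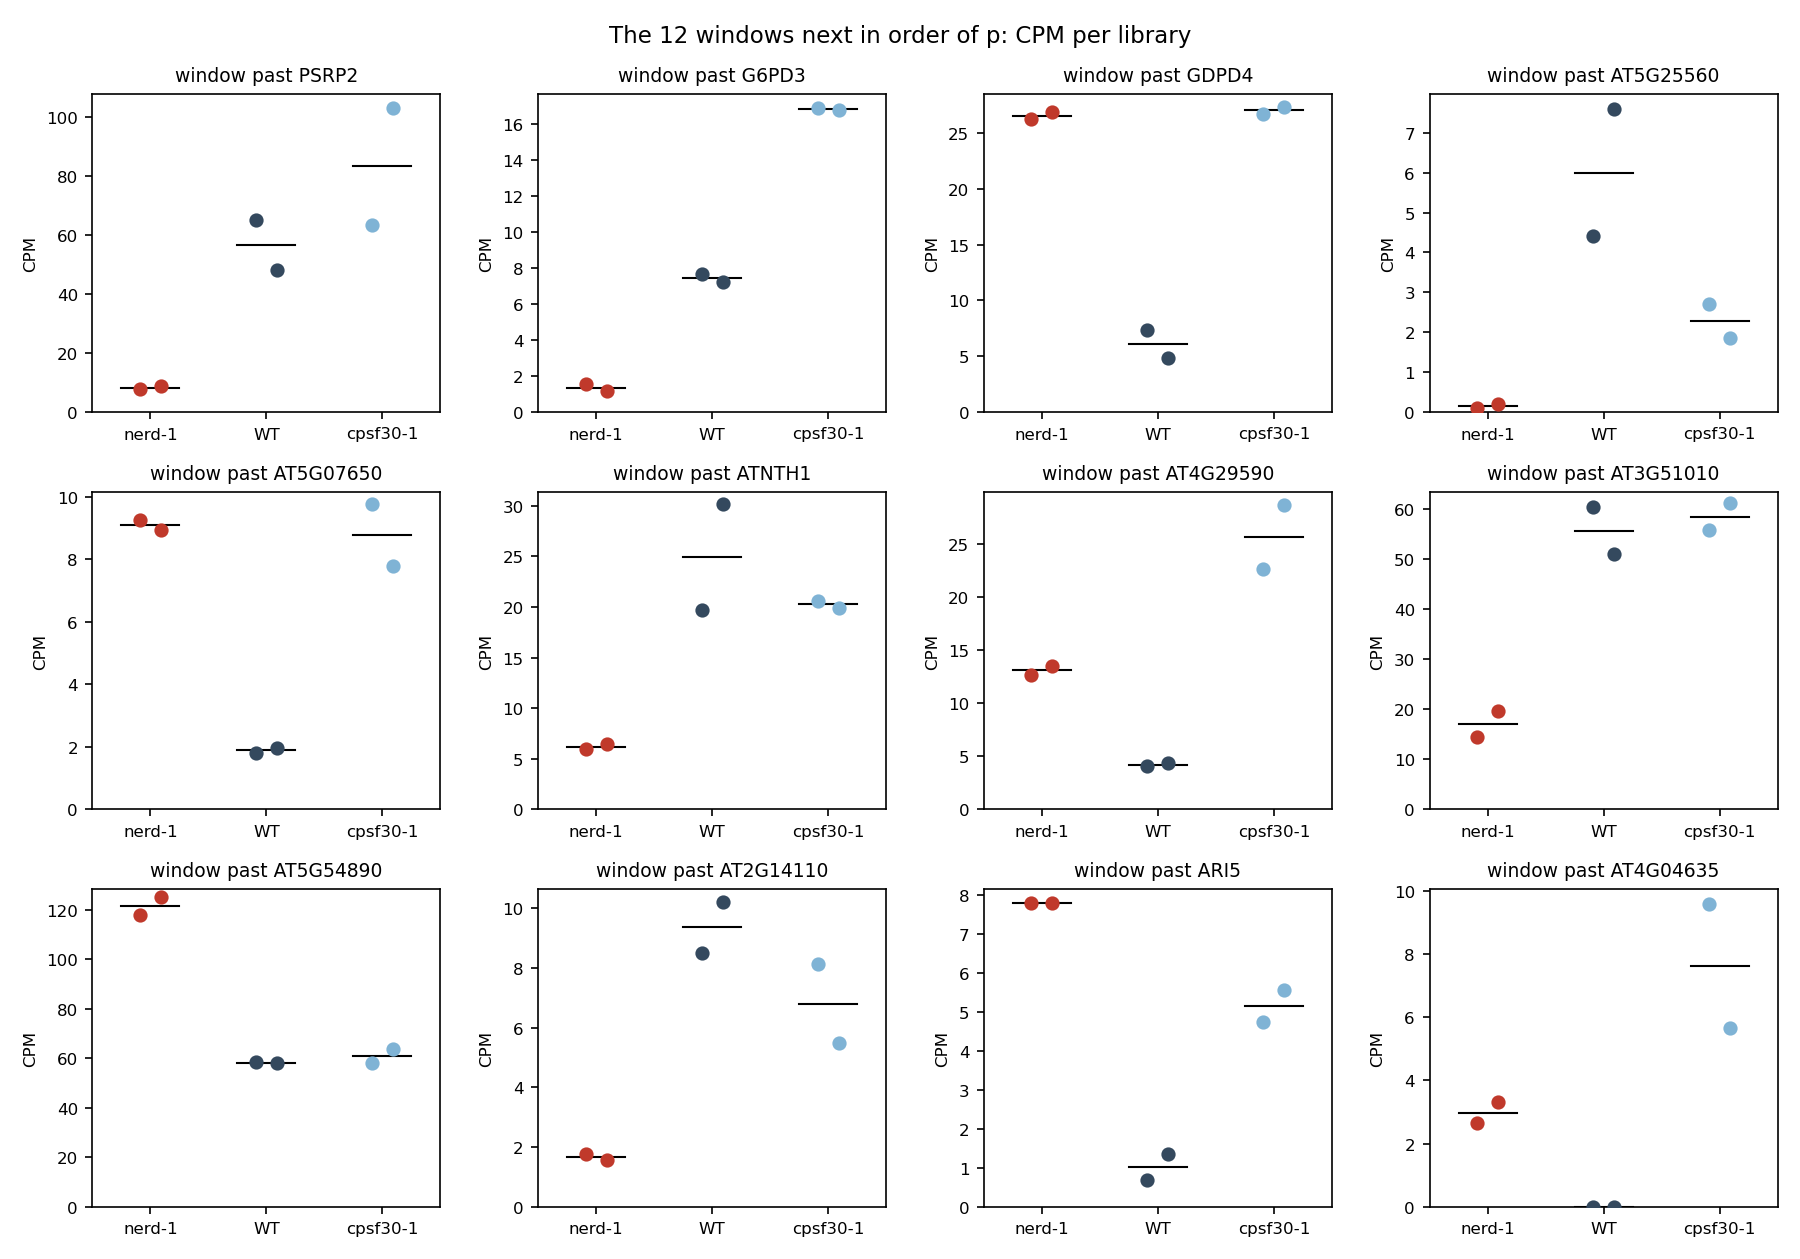
CPM (vertical axis, from 0) in the 12 windows that follow the 6 called ones in order of p, with nerd-1, WT and cpsf30-1 from left to right. Points are libraries and bars are means of 2. In every panel the nerd-1 and WT points are apart, which the choice by p favours, 6 with nerd-1 below and 6 with nerd-1 above.

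The remaining window of the 12, past AT5G54890, belongs to a part of chromosome 5 where neighbouring windows were shifted together. AT5G54890, also named mCSF2, encodes a mitochondrial splicing factor. Its window held 1210 and 1205 counts in nerd-1, against 517 and 773 in WT and 599 and 686 in cpsf30-1. The libraries of nerd-1 and WT did not overlap (log2 fold change 1.06, SE 0.147, edgeR adjusted p = 0.115). A running median over 15 windows, with windows in runs left out, stayed above 0.6 on the log2 scale from 21814019 to 22322305, a stretch of 508 kb. The stretch was found by looking at the values, so what follows is a description with no test.

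Of the 69 tested windows of this stretch, 64 were above WT in fold change, with a median log2 fold change of 1.03 (2.04-fold). At an unadjusted p under 0.05, 43 were higher (62.3%, against 4.72% of all windows) and 1 lower (1.45%, against 5.1%). Both nerd-1 libraries lay above both WT libraries in 50 (72.5%, against 22% of all windows). edgeR called 0 of the 69, with 44 at an unadjusted p under 0.05 (63.8%, against 9.82%). DESeq2 called 21, all higher, where it called 0.509% of all windows higher. Such shares follow in part from the choice of the stretch. Some of its windows also overlap each other, as past OMT1 and AT5G54170, and past PSKR2 and AT5G53900. These may share reads, so the windows are not separate units. A run of 69 windows in nerd-1 replicate 1, from 21984378 to 22248832 with a minimum of 55 counts, overlies much of the stretch. Without the windows in runs, 38 windows remained, of which 33 were above 0, with a median of 0.81. Their median level was 13.5 and 14.2 CPM in nerd-1 replicates 1 and 2, against 7.58 and 7.03 CPM in WT replicates 1 and 2 and 8.8 and 9.79 CPM in cpsf30-1 replicates 1 and 2. The medians were 0.75 for nerd-1 minus cpsf30-1 and 0.04 for cpsf30-1 minus WT. The stretch was chosen on the values of these same nerd-1 libraries, so the comparison with cpsf30-1 is no independent support. In the 500 kb on the left 58 windows outside runs had a median of 0.03, and in the 500 kb on the right 73 windows had a median of -0.04.

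The windows of this paragraph were chosen after their values were seen. Their fold changes lie above the median of their set, so they overstate the typical size. Windows of the stretch outside runs had a median log2 fold change of 0.81 (quartiles 0.44 and 1.17), and those in runs had a median of 1.17. The window past PSKR2, a receptor of the peptide hormone phytosulfokine, held 197 and 181 counts in nerd-1, against 47 and 23 in WT (log2 fold change 2.48, SE 0.476, adjusted p = 0.187). The window past HGO, the homogentisate dioxygenase of tyrosine breakdown, held 491 and 361 counts in nerd-1, against 181 and 247 in WT (log2 fold change 1.13, SE 0.246, adjusted p = 0.23). The window past RBP45A, an RNA-binding protein gene, held 220 and 211 counts in nerd-1, against 70 and 86 in WT (log2 fold change 1.60, SE 0.249, adjusted p = 0.132). In each of these the 2 genotypes did not overlap. Inside the run, the window past LHCB3, a chlorophyll a/b-binding protein of the light-harvesting antenna, held 1766 and 1583 counts in nerd-1, against 719 and 821 in WT (log2 fold change 1.24, SE 0.192, adjusted p = 0.132). It lies on the exons of the myosin gene ATM2 on the other strand. The window past THI1, an enzyme of thiamine synthesis, held 589 and 506 counts in nerd-1, against 191 and 223 in WT (log2 fold change 1.52, SE 0.258, adjusted p = 0.168). Within the run nerd-1 replicate 1 held at least 55 counts in every window, while no run was found there in nerd-1 replicate 2. Of the 31 tested windows in runs, 23 had both nerd-1 libraries above both WT libraries. In others nerd-1 replicate 1 alone was high: the window past AT5G54450 held 7.61 and 1.35 CPM in nerd-1, against 0.905 and 1.81 CPM in WT.

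Exceptions and edges were visible. The leftmost window, past AT5G53742, held 11 and 12 counts in nerd-1, against 22 and 33 in WT and 203 and 147 in cpsf30-1. The window past MLO11, next in from that edge, held 264 and 201 counts in nerd-1 and 188 and 174 in WT (log2 fold change 0.45), and the window past AT5G53810 held 559 and 504 in nerd-1, against 217 and 255 in WT (log2 fold change 1.29). Near the right edge the window past AT5G54990 held 357 and 297 counts in nerd-1, against 173 and 200 in WT (log2 fold change 0.93). The rightmost window, past FIP2, held 25 and 21 counts in nerd-1 and 20 and 27 in WT (log2 fold change 0.11). Further exceptions on that side were the windows past AT5G54870, AT5G54910 and AT5G54940, with log2 fold changes of -0.34, 0.18 and -0.05. The first windows beyond the edge were still above WT, with log2 fold changes of 1.34 past AT5G55010 and 0.86 past AT5G55040. Farther out, the window past VTC5, named after its values were seen, a GDP-L-galactose phosphorylase gene, held 248 and 229 counts in nerd-1 and 199 and 369 in WT (log2 fold change -0.07), and its groups overlap.

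**Figure D4:**
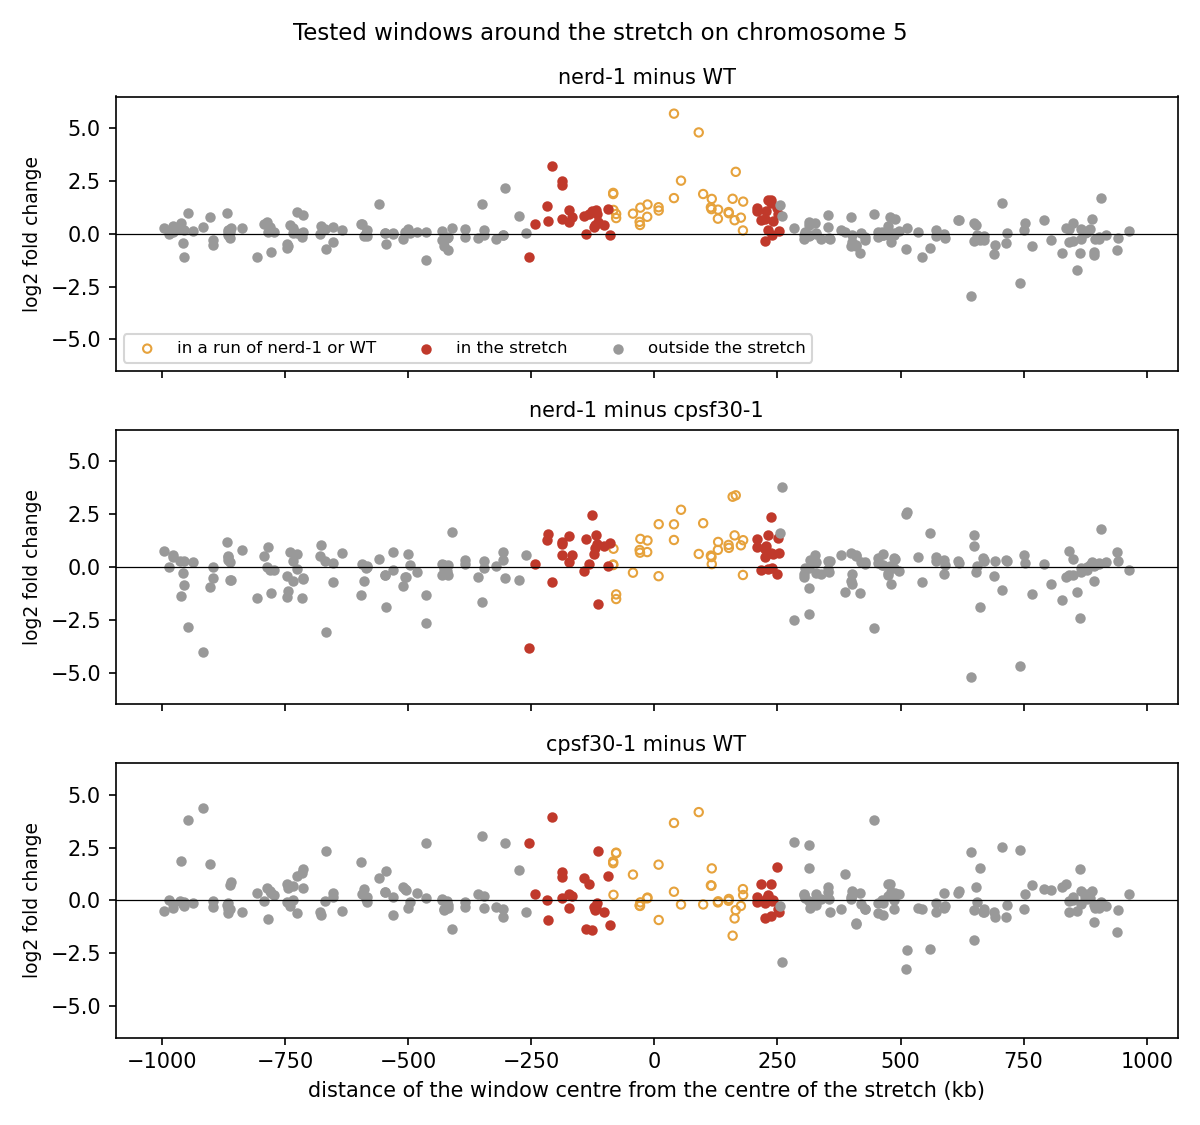
Log2 fold change (vertical axes) of 258 tested windows by distance from the centre of the chromosome 5 stretch in kb (horizontal axis), for nerd-1 minus WT at the top, nerd-1 minus cpsf30-1 in the middle and cpsf30-1 minus WT at the bottom. Red points are windows in the stretch, open orange points lie in runs of nerd-1 or WT libraries, and grey points lie outside. The red points sit mostly above 0 in the upper panels and around 0 in the bottom panel.

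A second stretch lay in the pericentromere of chromosome 2, around AT2G11890, from 3672395 to 5040502. It was found by the same running median of these values, so a shift above 0 follows from the choice. The values are a description with no test. It holds 16 tested windows, none of them in a run, and 15 were above 0 with a median log2 fold change of 1.30 (2.46-fold). At an unadjusted p under 0.05, 8 were higher (50%, against 4.72% of all windows) and 0 lower. Both nerd-1 libraries lay above both WT libraries in 11 (68.8%, against 22% of all windows). Such shares follow in part from the choice of the stretch. Some of its windows also overlap each other, as past AT2G11310 and AT2G11300, and past AT2G11890 and AT2G11891. These may share reads, so the windows are not separate units. The shift was not even along the stretch. Its leftmost windows, past AT2G09800, AT2G09990 and AT2G10405, had log2 fold changes of -0.11, 0.04 and 0.10. The windows higher at an unadjusted p under 0.05 begin past AT2G11140, at 4416108. In the 500 kb on the left 5 windows outside runs had a median of 0.87, so that edge is not sharp. In the 500 kb on the right 6 windows had a median of 0.26. The called window past AT2G11890 is among the 16. The window past AT2G11271 held 107 and 112 counts in nerd-1, against 24 and 23 in WT (log2 fold change 2.33, SE 0.341, adjusted p = 0.115). The isolated window past AT2G11270, which lies beside it, held 125 and 157 counts in nerd-1, against 47 and 23 in WT (log2 fold change 2.06, SE 0.486, adjusted p = 0.273). The best-covered window, past AT2G10405, held 2618 and 2653 counts in nerd-1 and 1889 and 3748 in WT (log2 fold change 0.10), so its groups overlap. In contrast to chromosome 5, cpsf30-1 was also above WT here, with a median of 0.73 for cpsf30-1 minus WT and 0.61 for nerd-1 minus cpsf30-1. The stretch was chosen on the values of the same nerd-1 and WT libraries, so neither median is independent support. The median of the stretch was 0.45 with a filter of at least 20 counts in every library of a genotype.

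The medians of most classes of windows lay near 0. The 1932 isolated windows tested had a median log2 fold change of 0.06, with 131 higher (6.78%) and 87 lower (4.5%) at an unadjusted p under 0.05, against 4.72% and 5.1% of all windows. They had 0 calls by edgeR, and 16 higher and 4 lower calls by DESeq2. The median was -0.03 over 7176 windows overlapping a gene of the opposite strand and -0.02 over 4920 overlapping a gene of the same strand. Among windows within 2.5 Mb of a centromere, where transposons and silent chromatin are dense, 649 were tested. Their median was 0.00, with 57 higher (8.78%) and 26 lower (4.01%) at an unadjusted p under 0.05. By chromosome, from 1 to 5, there were 5 higher and 5 lower, 17 higher and 4 lower, 15 higher and 1 lower, 11 higher and 12 lower, and 9 higher and 4 lower. Chromosomes 1 and 4 thus held about as many lower as higher windows. On chromosome 2, the stretch found by its values holds 8 windows higher at this level. On chromosome 3, a run of 10 windows from 11722104 to 11797716, all tested, was found in nerd-1 replicates 1 and 2. Windows of a run share 1 minimum count, and how many of them are among the higher windows was not counted. The 226 windows past pseudogenes had a median of 0.03, with 24 higher (10.6%) and 10 lower (4.42%). The isolated, pericentromeric and pseudogene windows had more higher than lower windows at this level, with no test made of these counts.

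Of 10 gene lists covering 171 genes, 0 windows were called by edgeR, against 0.0424% of all tested windows. That share is too low for a count of 0 in lists of this size to say anything about them. Of the 102 windows tested in these lists, 83 lie on another gene and 10 overlap their own gene, by up to 283 bases past KTF1. Their reads are therefore not a direct measure of those genes' expression. At an unadjusted p under 0.05 the lists held 13 windows (12.7%, against 9.82% of all windows), and DESeq2 called 3. In lists of 4 to 20 tested windows, the counts at that level given below are small and are no result about a list. In the RNA-directed DNA methylation list, the pathway in which NERD is placed, 12 of 23 windows were tested, with a median log2 fold change of -0.14, 1 higher and 1 lower at an unadjusted p under 0.05. The window past KTF1, an adaptor of the Pol V transcripts, held 40 and 47 counts in nerd-1, against 85 and 101 in WT (log2 fold change -0.96, adjusted p = 0.402). The window past CLSY1 (CHR38), a chromatin remodeller that recruits Pol IV, held 219 and 269 counts in nerd-1 and 132 and 244 in WT (log2 fold change 0.57, adjusted p = 0.494).

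Maintenance and removal of DNA methylation gave 10 tested windows of 16 with a median of -0.04, none at an unadjusted p under 0.05. The smallest p were past CMT2, a non-CG methyltransferase, with 137 and 120 counts in nerd-1 and 136 and 234 in WT, and past MET1, the CG methyltransferase, with 67 and 49 in nerd-1 and 76 and 97 in WT. Post-transcriptional silencing gave 10 of 19 with a median of 0.06. The window past AGO1, the main Argonaute of the microRNA pathway, held 44 and 36 counts in nerd-1, against 0 and 14 in WT and 159 and 227 in cpsf30-1 (log2 fold change 2.72, adjusted p = 0.349), and DESeq2 called it. The window past SE, a zinc finger protein of microRNA processing, held 119 and 138 counts in nerd-1 and 111 and 254 in WT.

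The list of genes reported as silenced by DNA methylation gave 4 of 5 with a median of 0.06. Whether each of them is methylated or silent in Col-0 seedlings was not examined. The window past PAI1, a tryptophan synthesis gene, overlaps RPS15A on the same strand by 427 bases, 235 of them exonic. It held 447 and 512 counts in nerd-1, against 1029 and 3241 in WT and 2475 and 556 in cpsf30-1 (log2 fold change -1.90, edgeR adjusted p = 0.419). The WT and cpsf30-1 libraries varied widely. The window past FWA, a homeobox gene silent in most tissues through methylated promoter repeats, held 19 and 34 counts in nerd-1 and 15 and 15 in WT (log2 fold change 0.94, adjusted p = 0.602).

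Polyadenylation and termination factors gave 20 of 30 with a median of -0.17, 0 higher and 1 lower at an unadjusted p under 0.05. The window past the poly(A) polymerase gene PAPS4 (nPAP) held 115 and 121 counts in nerd-1, against 141 and 250 in WT (log2 fold change -0.55, adjusted p = 0.44). The window past FPA, an RNA-binding protein that acts in poly(A) site choice, held 195 and 193 in nerd-1 and 223 and 455 in WT (log2 fold change -0.61, adjusted p = 0.543). The m6A writers, readers and erasers gave 7 of 10 with a median of 0.10. The window past the reader ECT2 held 126 and 144 counts in nerd-1, against 245 and 415 in WT (log2 fold change -1.11, adjusted p = 0.347). The window past the writer subunit MTB (EMB1691) held 298 and 301 in nerd-1 and 185 and 290 in WT (log2 fold change 0.50, adjusted p = 0.533).

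Photosynthesis had the lowest median, -0.46 over 20 of 21 windows, with 1 higher and 4 lower at an unadjusted p under 0.05. Its median ranged from -0.56 to -0.35 over the alternative analyses. The window past LHCB1.4 (LHB1B1), an isolated window, held 37 and 27 counts in nerd-1, against 61 and 143 in WT (log2 fold change -1.46, adjusted p = 0.26). The isolated window past RBCS1A, the major Rubisco small subunit gene, was named after its values were seen. It held 3 and 1 counts in nerd-1, against 2736 and 5 in WT and 4515 and 86 in cpsf30-1, so its fold rests on WT replicate 1. LHCB3 was the 1 higher window, within the chromosome 5 stretch. DESeq2 called LHCB3 higher and RBCS1A lower.

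The medians of the defence lists lay near 0, over few tested windows. Salicylic acid defence gave 5 of 18 with a median of 0.06 and 0 windows at an unadjusted p under 0.05. The closest was past SARD1, with 112 and 121 counts in nerd-1 and 139 and 378 in WT (log2 fold change -0.91, edgeR adjusted p = 0.538). Next was the window past EDS5, with 2794 and 2619 in nerd-1 and 2343 and 2438 in WT (log2 fold change 0.28, edgeR adjusted p = 0.691). NLR immune receptors gave 10 of 18 with a median of 0.11. The window past RPP4 held 1219 and 828 counts in nerd-1, against 680 and 521 in WT and 73 and 97 in cpsf30-1 (log2 fold change 0.82 against WT, adjusted p = 0.488). Against cpsf30-1 it was higher (log2 fold change 3.67, edgeR adjusted p = 0.00338). The window past its paralog RPP5 held 69 and 96 in nerd-1 and 128 and 235 in WT (log2 fold change -0.95, edgeR adjusted p = 0.601). RPP4 and RPP5 belong to a cluster of near-identical genes, so the assignment of reads there is uncertain.

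Root markers, which would track the share of root in whole seedlings, gave 4 of 11 with a median of 0.21. The window past EXPA7, a root hair expansin, held 103 and 76 counts in nerd-1, against 44 and 69 in WT (log2 fold change 0.82, adjusted p = 0.406). The window past CASP1, of the root endodermis, held 199 and 189 in nerd-1 and 173 and 170 in WT (log2 fold change 0.28, adjusted p = 0.726). In bulk seedlings fewer cells of a type and less RNA per cell cannot be told apart, and windows past genes measure neither directly.

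**Figure D5:**
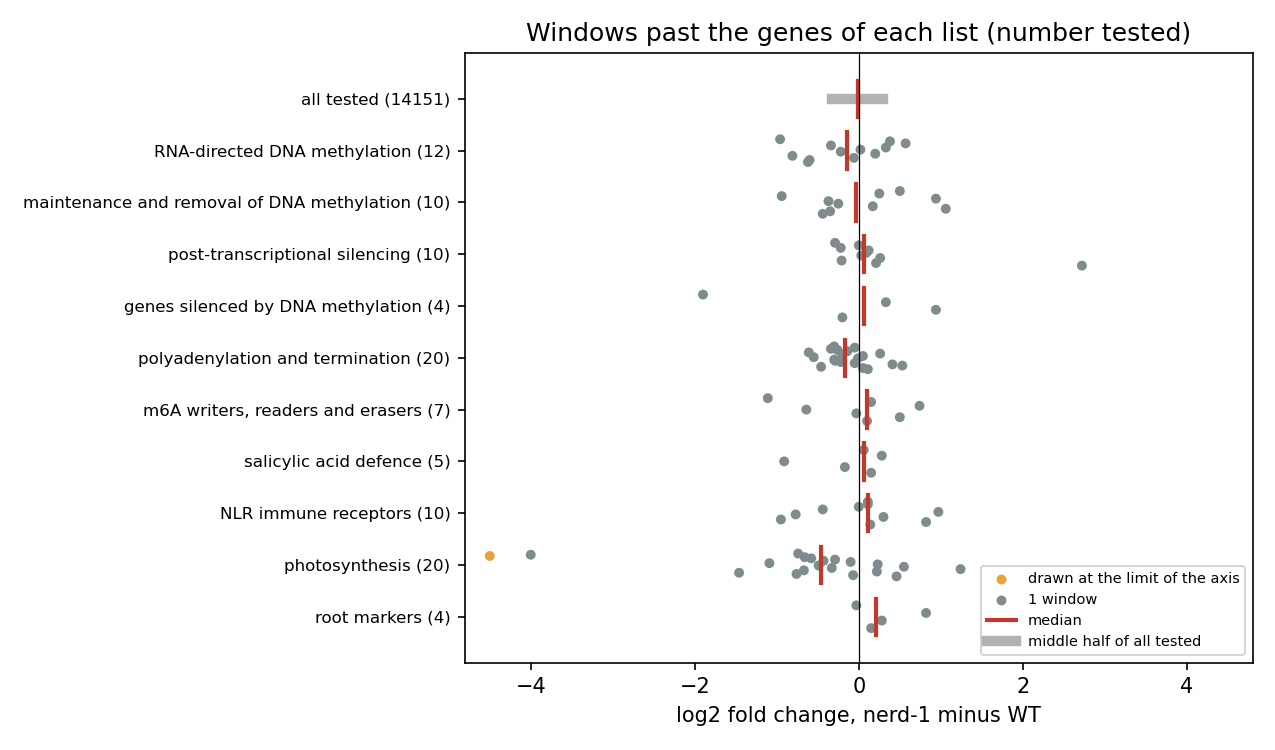
Log2 fold change of nerd-1 against WT (horizontal axis) for the tested windows past the genes of 10 lists, with the number tested after each name. Grey points are windows, red ticks are medians, and the grey bar spans the lower to the upper quartile of all 14151 windows; the orange point, past RBCS1A, lies beyond the axis and is drawn at its limit of 4.5 below 0. The photosynthesis median lies farthest from 0 and the rest lie between -0.17 and 0.21.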

How the data were processed

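RNA of 9-day-old seedlings was treated with DNase and made into stranded poly(A) libraries, per the labels' protocols. TopHat2 2.0.7 with Bowtie2 2.3.4, Cufflinks 2.2.1, Cuffdiff and the TAIR10 build are named in the submitters' processing notes. No source used here names the counting tool or its strand setting. The authors deposited whole-number counts for the 500 bases past each transcript's 3' end, without normalisation.

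For each gene the transcript ending farthest downstream was kept. Windows were placed with the TAIR10.1 annotation, which gave a position to 38527 of 39087 transcripts. Counts were tested in edgeR 4.0.16 under R 4.3.3 after its expression filter (14151 windows tested, 16958 not) and TMM scaling (factors 0.958 to 1.05). A two-sided quasi-likelihood F-test used all 6 libraries and 1 mean for each genotype (3 residual degrees of freedom), with Benjamini-Hochberg adjustment and calls at 0.05. CPM use TMM-scaled totals. A run is at least 10 consecutive windows sharing a minimum of at least 5 counts, with at least 3 isolated windows exactly at it. Centromere midpoints are approximate and were entered by hand. The named windows are the called ones with their neighbours, the next 12 by p, those past NERD and CPSF30, and the 2 smallest p of each list; windows of the 2 stretches, DRP3B, DEG1, VTC5 and RBCS1A were named after their values were seen. The members and lists were chosen with earlier results of these data known. The model was tested on simulated data. DESeq2 1.42.0 and other settings were alternatives.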

Additional observations from a re-analysis of the deposited data

How the results depend on the processing

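The same 6 windows were called in nerd-1 against WT with DESeq2 size factors in edgeR and with a filter of at least 20 counts. Without WT replicate 1 there were also 6 calls, 5 of them shared. The transcript of highest total gave 7 genes, among them all 6. The calls became 150 with DESeq2, 2 with library totals and no TMM, 640 with no filter (163 of them in runs), 10 transcripts of 7 genes with all deposited transcripts and 0 with only the 4 libraries compared. With 1 library left out they ranged from 0 to 125, and from 0 to 91 on the same 14151 windows. Chosen after seeing the data, leaving out all windows in runs gave 12.

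The 1503 calls of nerd-1 against cpsf30-1 became 3021 with no filter and 2287 with only the 4 libraries compared. With 1 library left out they ranged from 0 to 1736, and from 43 to 2304 on the same windows. Without nerd-1 replicates 1 and 2 there were 26 and 0, and without cpsf30-1 replicates 1 and 2 there were 217 and 261. On the same windows these 4 fits gave 74, 43, 298 and 448.

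The replicate numbers showed no pairing of nerd-1 with the other genotypes. Deviations from the group means correlated at -0.00493 between nerd-1 and WT and -0.00103 between nerd-1 and cpsf30-1. Between cpsf30-1 and WT the correlation was -0.311. These genotypes thus shared some variation with the replicate numbers reversed, and its cause was not tested. With the replicate number as a block the calls were 0 for nerd-1 against WT (942 at an unadjusted p under 0.05) and 409 for nerd-1 against cpsf30-1. With the cpsf30-1 numbers exchanged in the block, chosen after seeing the data, they were 17 and 2440.

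Over 38 named windows and 23 alternatives, 741 values kept their direction and their side of the threshold, 65 lost a call, 63 gained one and 2 changed sign. Both sign changes were the SE window, at 0.05 without WT replicate 2 on either set of windows, in a range from -0.56 to 0.05 with 1 library left out; the cause was not tested. The median of the chromosome 5 stretch ranged from 0.70 to 0.88 and that of the chromosome 2 stretch from 0.45 to 1.61. List medians changed sign under some alternative for RNA-directed DNA methylation, maintenance and removal of DNA methylation, post-transcriptional silencing, genes silenced by DNA methylation, m6A and salicylic acid defence. The precision is limited by the 2 libraries of each genotype.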
